A study of Mus musculus with 12 samples.

Results

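The ephrin, Slit-Robo and netrin guidance genes were followed in the RNA of neural stem and progenitor cells (NSPCs) with and without Ythdf2. The families were proposed with earlier results of these data known, and their members were then taken by gene symbol alone. The set holds 44 of the 24525 genes counted: 22 genes of the Eph and ephrin system, 10 of the Slit-Robo system and 12 of the netrin system. The cells were grown as free-floating neurospheres from the forebrain of E14.5 C57BL/6 mouse embryos, at passage 1, with 20 ng/ml EGF and 10 ng/ml bFGF in the medium of both genotypes. There were 3 wild-type and 3 Ythdf2-/- samples, and the values are counts per gene in the input libraries, that is, in fragmented mRNA set aside before any antibody step. The study made the deletion from a conditional allele with LoxP sites around the 5′ UTR and the first exon, using mice with Cre in all tissues and then crosses of heterozygotes, so every cell of the embryo lacked the gene and not the NSPCs alone. Between 11029827 and 13185778 reads were counted per library.

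Guidance cues tell growing axons and migrating cells where to go. Ephrins are membrane-bound ligands of the Eph receptor tyrosine kinases: A ephrins are held by a lipid anchor and bind mainly EphA receptors, B ephrins span the membrane and bind mainly EphB receptors, and both partners can signal. Slits are large secreted proteins that repel through Robo receptors, and srGAPs are adaptors that act downstream of Robo. Netrin-1 attracts through Dcc and its relative Neo1 and repels when Unc5 receptors take part, while netrin-Gs are membrane-anchored relatives that bind other partners. In the forebrain these families are known for axon crossing at the midline, cortical mapping and the control of progenitor division. Ythdf2 binds mRNA that carries the base modification m6A and is known to speed the decay of that mRNA.

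Ythdf2 itself had 840, 961 and 999 reads in the wild-type libraries and 137, 198 and 138 in the Ythdf2-/- libraries, a mean of 15.8% of wild type on the CPM scale. CPM is a gene's read count relative to the library total, with the totals scaled by the TMM method. Wild-type replicate 3 stood apart from the other 5 libraries, and each tested guidance gene below is given with its value there or with the log2 fold change without it. Of all 13112 genes tested, 25.0% were more than 2-fold above or below the mean of the other wild-type libraries in replicate 3. Of the 39 guidance genes tested it was 19, or 48.7%, with 12 above and 7 below. Wild-type replicates 1 and 2 differed by more than 2-fold in none of the 39 and in 235 of all genes. Marker genes moved with the same library. The summed CPM of 11 oligodendrocyte lineage markers was 5070 in wild-type replicate 3 against 1800 to 2230 in the other 5 libraries, and 7 of the 11 were highest there, such as the myelin gene Mbp at 573 CPM against 1.21 to 8.85. Another 3 were lowest there, Olig1, Olig2 and Cspg4, with Olig1 at 547 CPM against 874 to 1250. Pdgfra, a precursor marker like Cspg4, was among the 7, at 122 CPM against 9.98 to 72.9. The summed CPM of 12 neuronal markers was 2150 there and 1290 to 1520 elsewhere. Of these, 6 were highest in that library, such as Dcx at 315 CPM against 8.36 to 13.1, and 2 were lowest, Nefl and Gap43, with Gap43 at 55.8 CPM against 74.1 to 176. The sum of 8 astroglial markers was 9630 against 2880 to 6910 CPM, with 4 of the 8 highest in wild-type replicate 3. The sum of 8 neural progenitor markers was 3760 against 5070 to 6990 CPM, through Nes, Vim and Fabp7, while Sox2, Pax6, Hes5 and Prom1 were highest in wild-type replicate 3 (Sox2 at 551 CPM against 316 to 426). Of the markers of cells from outside the neural lineage, 7 mesenchymal genes summed to 34.8 CPM in wild-type replicate 3 and to 2.15 to 4.43 in the rest. Pdgfrb alone, also a pericyte gene, gave 31.8 of the 34.8 CPM, and Col1a1, Col3a1 and Lum were at 0 there. The 9 endothelial markers summed to 1.28 to 4.11 CPM with Cldn5 at 0 in all 6 libraries, and the 8 microglia and macrophage markers to 3.58 to 6.56 CPM with Ptprc at 0 in all 6. Some markers also separated the genotypes without overlap, as did 10.2% of all genes tested. Gfap was at 437, 625 and 3050 CPM in wild type and 127, 87.7 and 5.55 CPM in Ythdf2-/- (log2 fold change -4.22, and -2.85 without wild-type replicate 3). Prom1 (-2.43, and -1.60), Mbp (-5.81, and -1.16), Myrf (-3.87, and -0.82), Cd68 (-0.66, and -0.71) and Stmn2 (-2.33 in both fits) were lower as well. Stmn2 had only 16 to 19 reads in the wild-type libraries and 1 to 8 in the Ythdf2-/- libraries. Olig1 (0.48, and 0.28) and Cspg4 (0.44, and 0.41) were higher without overlap. The astroglial and the progenitor markers each had 4 genes higher and 4 lower, with median log2 fold changes of 0.03 and 0.00. Of the tested neuronal markers 2 were higher and 9 lower (median -0.45, and 0.14 without wild-type replicate 3). Of the tested oligodendrocyte lineage markers 3 were higher and 7 lower (median -1.35, and -0.11). The part of these cell types in the results below was not tested, and in bulk RNA fewer cells of a type and less RNA per cell cannot be told apart. Reads on 4 Y-linked genes were present in wild-type replicates 1 and 2 and in Ythdf2-/- replicate 3, and at 0 to 1 in the other 3 libraries.

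No guidance gene passed the adjusted threshold in the main test. With edgeR's quasi-likelihood test, 0 of the 39 tested guidance genes had an adjusted p under 0.05, as did 0 of 13112 genes, or 0.0%. The adjusted p of each tested guidance gene was 0.999. Even the deleted gene Ythdf2 had an adjusted p of 0.0547 in this test (log2 fold change -2.66). A gene that the test did not call is thus not shown to be unchanged. At an unadjusted p under 0.05 there was 1 of 39, Unc5b, against 3.63% of all genes. Of the 39, 20 had a higher and 19 a lower mean in Ythdf2-/- neurospheres, and the median log2 fold change was 0.00 beside -0.01 over all genes. DESeq2 called 1 of 41 at an adjusted p under 0.05, again Unc5b, against 0.606% of the 14530 genes it tested. The genotype groups did not overlap in 3 guidance genes, against 10.2% of all genes. All 3 were lower in Ythdf2-/- (4.92% of all genes were lower without overlap), and 0 were higher (5.24% of all genes).

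These 3 genes were Unc5b, Efnb3 and Ephb4. Unc5b, a netrin receptor of the repulsive kind that is also known from blood vessels, was at 15.1, 15 and 18.8 CPM in wild-type replicates 1 to 3 and at 7.33, 7.55 and 8.13 CPM in Ythdf2-/- replicates 1 to 3. The Ythdf2-/- values lay close together, and each was well under the lowest wild-type value. The mean was 47.1% of wild type, and the log2 fold change was -1.08 (standard error 0.189) and stayed between -1.14 and -0.97 when any single library was left out. The adjusted p was 0.999 with edgeR and 4.03e-05 with DESeq2, and over all alternatives it ran from 4.03e-05 to 1. The gene has 17 exons and spans chr10:60762594-60831581 (GRCm38.p6, minus strand).

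Efnb3, a B ephrin known as a midline barrier to corticospinal axons, was at 7.19, 7.63 and 30.5 CPM in wild type and at 4.43, 6.81 and 5.87 CPM in Ythdf2-/-. All Ythdf2-/- values were under the wild-type ones, but wild-type replicates 1 and 2 were close to Ythdf2-/- replicate 2, and replicate 3 set most of the distance. The log2 fold change was -1.40 (standard error 0.621) and -0.37 (0.247) without wild-type replicate 3. Ephb4, an EphB receptor best known from veins, was at 11.5, 11 and 9.34 CPM in wild type and at 8.87, 9.11 and 8.85 CPM in Ythdf2-/-. The groups were next to each other, 9.11 against 9.34 CPM at the nearest, and the log2 fold change was -0.25 (standard error 0.188).

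Since Ythdf2 acts on m6A-bearing mRNA, the letters GGACT, a core form of the m6A consensus, were looked up in the sense strand of 1 coding RefSeq transcript per gene (GRCm38.p6). No m6A value is reported here, so each match is a string of letters and not a modified site, and only this motif was searched. Copies are shown for the 3 genes whose groups did not overlap, a choice made after their values were seen. Each is the copy nearest to the stop codon among those whose 25 printed bases lie within a single exon. The bases run from 5′ to 3′ with the motif in capitals.
Efnb3: cggggtggtgGGACTgcagaccccc
Ephb4: tgacctccaaGGACTcaccaccgtg
Unc5b: gagctggagaGGACTctgggtggct
The Efnb3 window (chr11:69555967-69555991, minus strand) is coding, with the motif centred at -119 from the last base of the stop codon. The Ephb4 window (chr5:137373639-137373663, plus strand) holds the motif past the stop codon, centred 10 bases after its last base. The Unc5b window (chr10:60769224-60769248, minus strand) is coding, with the motif centred at -641 from that base in its own transcript. A copy within 100 bases of the last base of the stop codon was found in 19 of the 39 tested guidance genes, or 48.7%, and in 25.0% of the 12458 tested genes with a coding transcript. Of the 3 genes shown, Ephb4 had such a copy, and Efnb3 and Unc5b did not. Over whole transcripts the median was 1.54 copies per kilobase in the guidance genes and 1.05 in all genes; transcript length and base composition were not matched.

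The levels of the 44 genes spread widely. Levels are compared between genes per length, as RPKM, the CPM divided by the exon length in kilobases. The mean over 6 libraries was at least 10 RPKM in 9 genes, from 1 to 10 in 18 and under 1 in 17. The highest was the secreted cue Ntn1 (32.5 RPKM), followed by its receptor Neo1 (27.1 RPKM) and the adaptor genes Srgap2 (26.9 RPKM) and Srgap3 (22.0 RPKM). Ntn4, a netrin of basement membranes, came next at 14.1 RPKM, and the receptors Ephb3 (13.6), Robo1 (13.3), Epha5 (10.8) and Robo2 (10.7 RPKM) completed the 9. The order within these groups is not firm, since Neo1 ran from 19.6 to 40 RPKM and Srgap3 from 14 to 43.3 RPKM between libraries. The 5 genes below the filter on low counts, Epha6, Epha8, Slit3, Robo4 and Ntn5, had at most 17 reads in any library, those 17 being of Slit3 in wild-type replicate 3, against 0 to 3 in the other libraries. Robo4 is known from endothelium, whose markers were also near 0.

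**Figure D1:**
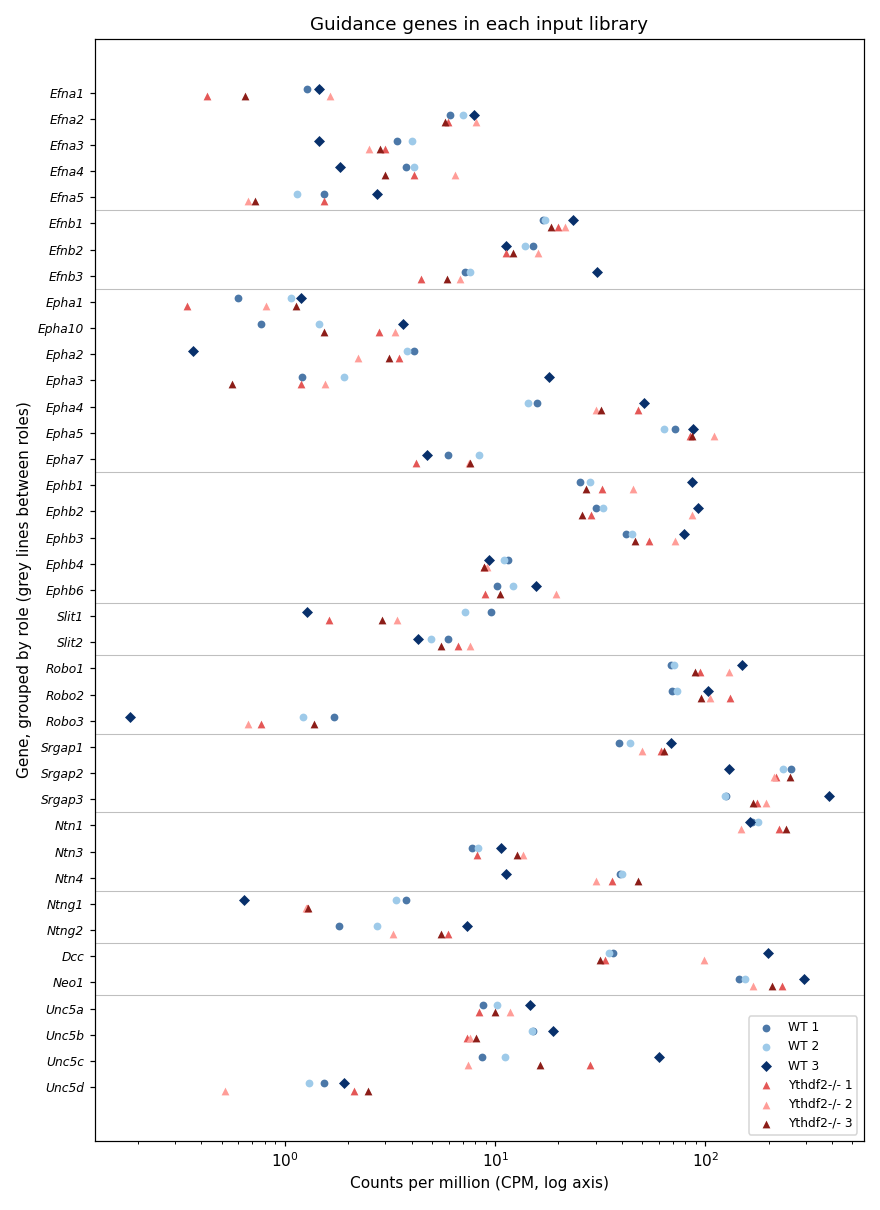
CPM on a log axis (horizontal) of the 39 tested guidance genes in each library (blue: wild type, with replicate 3 as dark diamonds; red triangles: Ythdf2-/-). Red and blue points do not mix for Efnb3, Ephb4 and Unc5b, and the dark diamond lies far to the right for Epha3, Dcc and Unc5c and far to the left for Epha2, Robo3 and Ntng1.

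Summed over a system, the Eph and ephrin genes had 72.1 ± 26.2 RPKM in wild type and 69.6 ± 14 RPKM in Ythdf2-/- (SD, n = 3 each). The Slit-Robo genes had 79.7 ± 18.1 and 83.4 ± 1.48 RPKM, and the netrin genes had 90.6 ± 18.6 and 95.1 ± 12.9 RPKM. None of the 3 sums separated the genotypes. In each, wild-type replicate 3 had the highest sum (102, 101 and 112 RPKM), and wild-type replicates 1 and 2 had the lowest sums in the Eph and ephrin system (56.0 and 58.1 RPKM) and the Slit-Robo system (70.3 and 68.2 RPKM). Receptors outweighed ligands in the first 2 systems. EphA and EphB receptors summed to 17.2 and 33.9 RPKM in wild type against 7.79 for A ephrins and 13.2 for B ephrins, and Robos to 22.1 RPKM against 1.76 for Slits. In the netrin system wild type had 43.8 RPKM for netrins, 35.6 for Dcc and Neo1 together and 8.59 for the Unc5 receptors. In wild-type replicate 3 alone these were 35.2, 59.3 and 13.5 RPKM, so the balance differed between libraries.

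**Figure D2:**
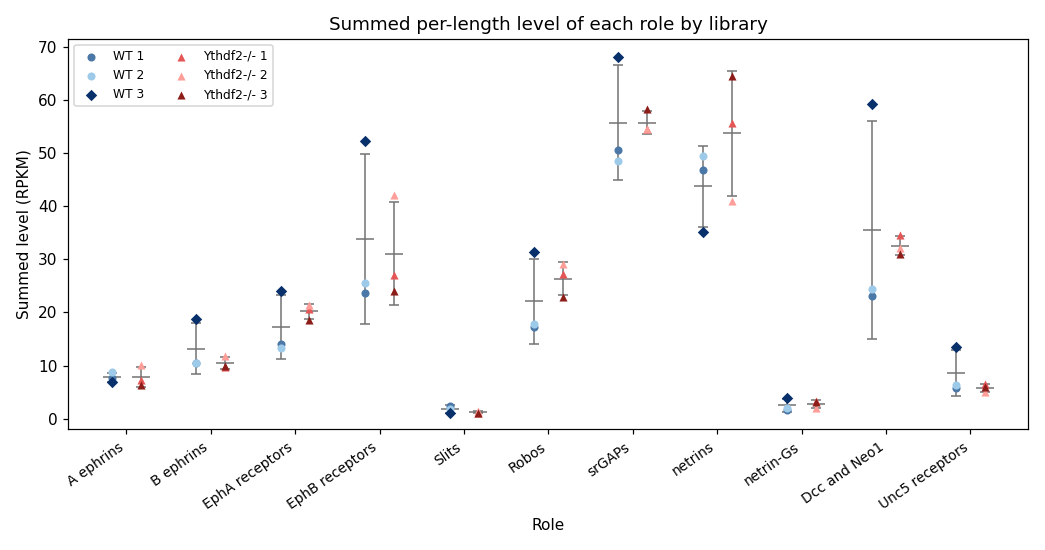
Summed RPKM (vertical) of the genes of each role by library, with blue points for wild type, red triangles for Ythdf2-/-, and grey marks for the mean ± SD of 3 libraries. The genotypes overlap in each of the 11 roles, and wild-type replicate 3 is the highest library for B ephrins, EphA and EphB receptors, Robos, srGAPs, netrin-Gs, Dcc and Neo1, and Unc5 receptors.

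Among the A ephrins, which map retinal and cortical axons, Efna2 had the highest level (3.20 RPKM). Its values were 6.08, 7.02 and 7.96 CPM in wild type and 5.97, 8.14 and 5.79 CPM in Ythdf2-/-, and the groups overlapped (log2 fold change -0.08, standard error 0.249). Efna4 was at 3.77, 4.12 and 1.83 CPM in wild type and 4.09, 6.44 and 2.98 CPM in Ythdf2-/-. Its lowest value was that of wild-type replicate 3, and the log2 fold change of 0.47 (standard error 0.440) was 0.19 without it. Efna1 and Efna5 were low, with 85 and 99 reads over all 6 libraries. Efna1 was at 1.28, 1.45 and 1.46 CPM in wild type and 0.426, 1.63 and 0.644 CPM in Ythdf2-/-, and Ythdf2-/- replicate 2 was above all wild-type libraries. Efna5 was at 1.54, 1.14 and 2.75 CPM in wild type and 1.53, 0.666 and 0.724 CPM in Ythdf2-/-, so that only Ythdf2-/- replicate 1 reached into the wild-type range. Their log2 fold changes were -0.62 (standard error 0.533) and -0.89 (0.517). Efna3 had a log2 fold change of -0.11, and -0.43 without wild-type replicate 3.

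Of the B ephrins, Efnb1, on the X chromosome and known for its part in keeping cortical progenitors undifferentiated, was the highest (5.84 RPKM). It was at 16.9, 17.3 and 23.5 CPM in wild type and 20.0, 21.4 and 18.5 CPM in Ythdf2-/-. The Ythdf2-/- values lay inside the wild-type range, and the log2 fold change was 0.06 (standard error 0.190). Efnb2, the partner of Ephb4 in vessels, had 13.4 ± 1.95 CPM in wild type and 13.1 ± 2.56 CPM in Ythdf2-/- (log2 fold change -0.04, and -0.14 without wild-type replicate 3).

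The EphA receptors were led by Epha5 and Epha4. Epha5 was at 72.0, 63.5 and 87.7 CPM in wild type and 84.4, 110 and 86.3 CPM in Ythdf2-/-. Each Ythdf2-/- value was above wild-type replicates 1 and 2, and wild-type replicate 3 fell among them (log2 fold change 0.33, standard error 0.178). Epha4, a receptor for both ephrin classes that is present on cortical progenitors and on motor axons, was at 15.8, 14.3 and 50.8 CPM in wild type and 47.6, 30.1 and 31.8 CPM in Ythdf2-/-. Wild-type replicate 3 was the highest of the 6 libraries and replicates 1 and 2 the lowest, so the log2 fold change of 0.44 (standard error 0.526) was 1.27 (0.234) without replicate 3.

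Epha3, a receptor for A ephrins, had the largest log2 fold change of the set, -2.66 (standard error 1.13). It was at 1.2, 1.91 and 18.1 CPM in wild type and 1.19, 1.55 and 0.563 CPM in Ythdf2-/-. A single library, wild-type replicate 3, was 11.7 times the mean of the other wild-type libraries, and without it the log2 fold change was -0.49 (standard error 0.505). Epha2 went the other way in that library, with 0.366 CPM against 3.82 and 4.11 CPM in the other wild-type libraries and 2.22 to 3.50 CPM in Ythdf2-/-. Epha1 and Epha7 had log2 fold changes of -0.31 and 0.00 (-0.13 and -0.17 without wild-type replicate 3). Epha10 was at 0.770, 1.45 and 3.66 CPM in wild type and 2.81, 3.33 and 1.53 CPM in Ythdf2-/-. Wild-type replicate 3 was the highest library and the other wild-type libraries the lowest, and the log2 fold change was 0.39 (standard error 0.621), and 1.19 (0.491) without replicate 3. The exons of Epha1 and Epha10 overlap genes on the opposite strand by 236 and 79 bases, so their counts are uncertain.

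The EphB receptors Ephb3 and Ephb1 were the highest of their class (13.6 and 8.72 RPKM). Ephb3 was at 42.1, 44.8 and 79.3 CPM in wild type and 54.1, 71.4 and 46.2 CPM in Ythdf2-/-. Ephb1, which guides uncrossed retinal axons, was at 25.4, 28.2 and 86.2 CPM in wild type and 32.1, 45.2 and 27.0 CPM in Ythdf2-/-. In both genes wild-type replicate 3 was the highest library and wild-type replicate 1 the lowest. The log2 fold changes were 0.05 (standard error 0.298) for Ephb3 and -0.42 (0.512) for Ephb1, and 0.40 and 0.38 without wild-type replicate 3. Ephb2 was high in 1 library of each genotype, at 92.3 CPM in wild-type replicate 3 and 86.3 CPM in Ythdf2-/- replicate 2, and at 25.9 to 32.4 CPM in the other 4. Ephb6, a receptor without kinase activity, had 12.7 ± 2.77 CPM in wild type and 13 ± 5.69 CPM in Ythdf2-/- (log2 fold change 0.04, and 0.22 without wild-type replicate 3).

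In the Slit-Robo system the ligands were scarce. Slit1 was at 9.5, 7.17 and 1.28 CPM in wild type and 1.62, 3.41 and 2.90 CPM in Ythdf2-/-. Wild-type replicates 1 and 2 were above all Ythdf2-/- libraries and replicate 3 was under all of them. The log2 fold change was -1.18 (standard error 0.708), and -1.65 (0.346) without replicate 3. With all libraries and a term for presence of Y-linked reads it was -0.40 (0.706). Slit2 was at 5.99, 4.96 and 4.30 CPM in wild type and 6.65, 7.63 and 5.55 CPM in Ythdf2-/-. Its groups overlapped through Ythdf2-/- replicate 3 alone, and the log2 fold change of 0.38 (standard error 0.254) stayed between 0.27 and 0.51 when a library was left out.

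Robo1 and Robo2, the main Slit receptors of the forebrain, were 2 of the 9 genes with at least 10 RPKM. Robo1 was at 68.3, 70.7 and 150 CPM in wild type and 94.5, 129 and 89.6 CPM in Ythdf2-/-. Robo2 was at 69.4, 73.3 and 103 CPM in wild type and 131, 105 and 94.9 CPM in Ythdf2-/-. For both, each Ythdf2-/- value was above wild-type replicates 1 and 2, and wild-type replicate 3 was the highest of all for Robo1 and in the Ythdf2-/- range for Robo2. The log2 fold changes were 0.12 (standard error 0.348) and 0.43 (0.207), and 0.59 (0.176) and 0.63 (0.154) without wild-type replicate 3. Robo3, a receptor of commissural axons with 73 reads in all, was at 0.183 CPM in wild-type replicate 3 and 0.666 to 1.71 CPM in the other 5 libraries.

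The srGAPs shape membrane protrusions downstream of Robo. Srgap2 was at 254, 233 and 129 CPM in wild type and 216, 212 and 252 CPM in Ythdf2-/-, and Srgap3 at 125, 124 and 385 CPM and 176, 194 and 168 CPM. The pair went opposite ways in wild-type replicate 3, which was the lowest library for Srgap2 and the highest for Srgap3. The log2 fold change of Srgap2 was 0.14 (standard error 0.266), and -0.10 without that library. For Srgap3 it was -0.24 (standard error 0.465), and 0.53 (0.102) without it. Srgap1 had 50.4 ± 16 CPM in wild type and 58.4 ± 7.49 CPM in Ythdf2-/- (log2 fold change 0.21, standard error 0.246), and 0.50 (0.142) without wild-type replicate 3.

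Of the netrins, Ntn1 was at 166, 178 and 163 CPM in wild type and 224, 148 and 242 CPM in Ythdf2-/-. The wild-type libraries were close together, and the Ythdf2-/- libraries lay on both sides of them (log2 fold change 0.28, standard error 0.203). Ntn4 was at 39.1, 40.3 and 11.2 CPM in wild type and 36, 30.1 and 47.6 CPM in Ythdf2-/-. Only wild-type replicate 3 was far from the rest, and the log2 fold change of 0.33 (standard error 0.480) was -0.07 without it. Ntn3 had 8.94 ± 1.56 and 11.5 ± 2.86 CPM (log2 fold change 0.36, and 0.51 without wild-type replicate 3). Its exons share 89 bases with Tbc1d24 on the same strand. The netrin-Gs, which act at synapses, were low and went opposite ways in wild-type replicate 3. Ntng1 was at 3.77, 3.36 and 0.641 CPM in wild type and 1.28, 1.26 and 1.29 CPM in Ythdf2-/-, and Ntng2 at 1.80, 2.75 and 7.32 CPM and 5.97, 3.26 and 5.55 CPM. Both sets of Ythdf2-/- values fell between wild-type replicates 1 and 2 on one side and replicate 3 on the other. The log2 fold changes were -1.02 (standard error 0.626) for Ntng1 and 0.32 (0.569) for Ntng2, and -1.47 and 1.10 without wild-type replicate 3. With all libraries and a term for presence of Y-linked reads they were -0.41 (0.620) and 0.28 (0.513). The exons of Ntng2 share 272 bases with another gene on the same strand.

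Dcc, the attractive netrin receptor of commissural axons, was at 36.3, 34.8 and 199 CPM in wild type and 33.3, 98.4 and 31.5 CPM in Ythdf2-/-. As for Ephb2, the 2 high libraries were wild-type replicate 3 and Ythdf2-/- replicate 2, and the other 4 were alike. The log2 fold change was -0.73 (standard error 0.826), and 0.62 (0.526) without wild-type replicate 3. Neo1 was at 145, 155 and 295 CPM in wild type and 232, 168 and 207 CPM in Ythdf2-/-, with wild-type replicates 1 and 2 lowest and replicate 3 highest. Its log2 fold change was 0.03 (standard error 0.308), and 0.43 (0.152) without wild-type replicate 3.

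Of the other Unc5 receptors, Unc5a was at 8.73, 10.2 and 14.6 CPM in wild type and 8.36, 11.8 and 9.98 CPM in Ythdf2-/- (log2 fold change -0.15, standard error 0.269). Unc5c, a repulsive receptor of migrating cerebellar and spinal cells, was at 8.64, 11.1 and 60.4 CPM in wild type and 28.1, 7.40 and 16.3 CPM in Ythdf2-/-. The values of Unc5c differed several-fold within each genotype, and the log2 fold change was -0.63 (standard error 0.853), and 0.80 (0.532) without wild-type replicate 3. Unc5d, with 119 reads in all, had 1.59 ± 0.315 and 1.71 ± 1.05 CPM (log2 fold change 0.11, and 0.26 without wild-type replicate 3). The exons of Unc5a overlap those of Hk3 on the opposite strand by 34 bases.

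**Figure D3:**
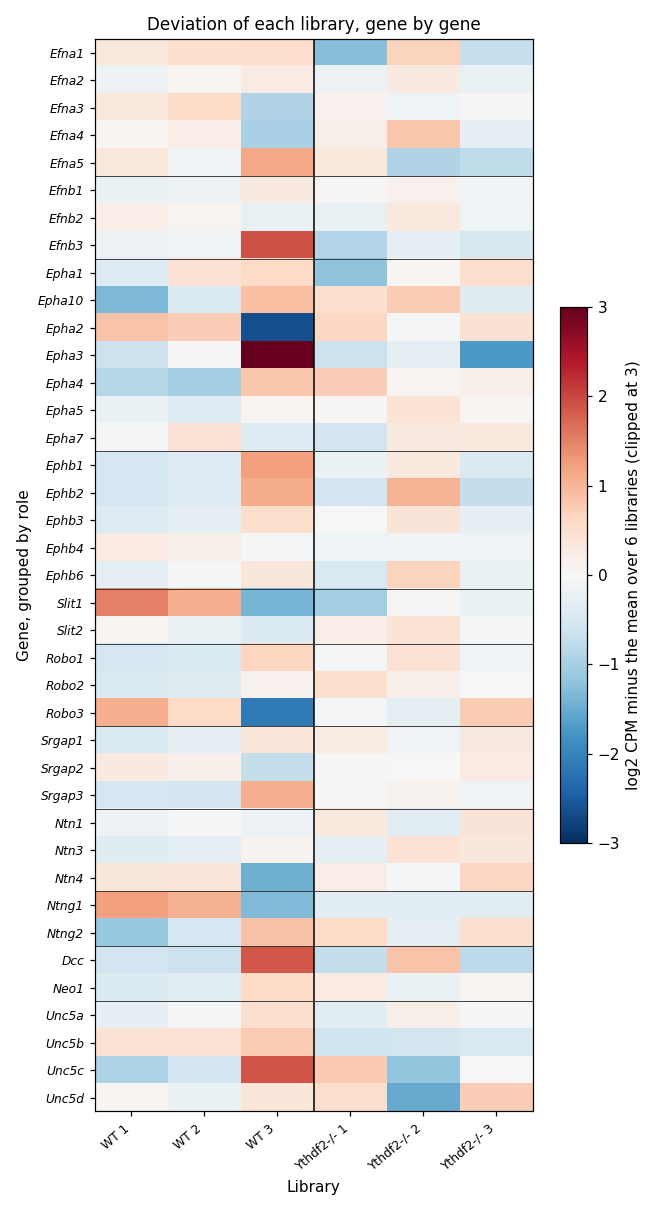
Each library's log2 CPM minus the mean of the 6 libraries (colour, clipped at 3) for the 39 tested guidance genes, grouped by role. The strongest colours stand in the column of wild-type replicate 3, red for Epha3, Efnb3, Dcc and Unc5c and blue for Epha2 and Robo3, while Unc5b is red in all wild-type and blue in all Ythdf2-/- libraries.

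Leaving out wild-type replicate 3 moved these counts further than leaving out any other library. At an unadjusted p under 0.05 there were then 11 of 39 guidance genes, against 16.6% of the 13283 genes tested, and 0 at an adjusted p under 0.05, against 0.0151%. Of the 11, 8 were higher in Ythdf2-/-, against 8.03% of all genes: Epha4, Epha5, Robo1, Robo2, Srgap1, Srgap3, Ntng2 and Neo1. The other 3 were lower, against 8.58% of all genes: Slit1, Ntng1 and Unc5b. The log2 fold changes of the 8 ran from 0.43 to 1.27. The groups did not overlap in 18 of 39, against 38.9% of all genes. The median log2 fold change was 0.22 beside 0.01 over all genes. In this comparison the wild-type group was 2 libraries that were closer to each other than any other pair of libraries was. Both had Y-linked reads, while of the Ythdf2-/- libraries only replicate 3 had them. Genotype and Y-linked reads were thus partly aligned there, and the part of the latter in these counts was not tested. limma-voom with sample quality weights, which keeps all 6 libraries but gave wild-type replicate 3 a weight of 0.0901, called 7 of 39 at an adjusted p under 0.05, against 4.82% of all genes. These were Epha4, Robo2, Srgap1 and Neo1 on the higher side and Slit1, Ntng1 and Unc5b on the lower side. Unc5b was the only guidance gene with an adjusted p under 0.05 in both this fit and DESeq2.

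**Figure D4:**
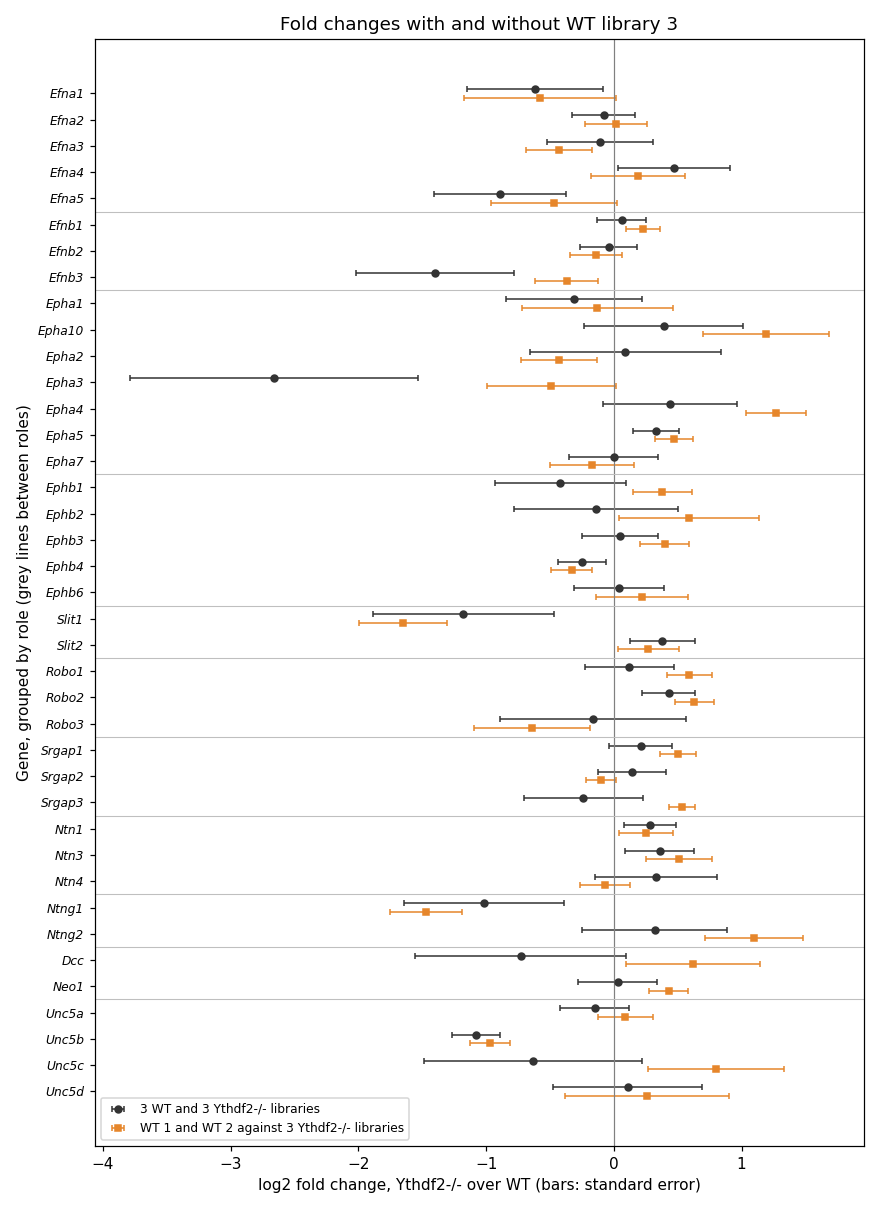
log2 fold change of Ythdf2-/- over wild type (horizontal, bars: standard error) for the 39 tested guidance genes, with all 6 libraries (black) and without wild-type replicate 3 (orange). The marks of Unc5b nearly coincide at -1.08 and -0.97, while those of Dcc, Unc5c, Srgap3 and Ephb1 lie on opposite sides of 0.

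The genes known to work with these families were read from 3 lists. Of 21 tested partners of the Eph and ephrin system, 12 had a higher and 9 a lower mean, 0 had an unadjusted p under 0.05 (3.63% of all genes), and the median log2 fold change was 0.03 (0.11 without wild-type replicate 3, where 1 gene, Sipa1l1 with 0.86, had an unadjusted p under 0.05, beside 16.6% of all genes). The largest was that of Ngef, the exchange factor ephexin that acts downstream of EphA receptors. It was at 3.42, 4.5 and 7.05 CPM in wild type and 2.56, 3.04 and 3.06 CPM in Ythdf2-/-, all under the wild-type values (log2 fold change -0.79, standard error 0.341, and -0.46 without wild-type replicate 3). The groups did not overlap in 2 further partners, the adaptor Nck1 and the phosphatase Inppl1, both higher in Ythdf2-/-. Thus 2 of 21 were higher and 1 was lower without overlap, beside 5.24% and 4.92% of all genes. Of 16 Slit-Robo partners, 8 were higher and 8 lower, 0 had an unadjusted p under 0.05, and the median was -0.01 (0.07 without that library). Without it 4 of the 16 had an unadjusted p under 0.05, Enah (0.36) and Sos1 (0.32) higher and Vasp (-0.44) and Cdc42 (-0.29) lower, beside 16.6% of all genes. Nell2, a secreted ligand of Robo3, had the largest log2 fold change, 0.85 (standard error 0.699), from 272, 342 and 50.5 CPM in wild type and 445, 209 and 544 CPM in Ythdf2-/-. It was 0.38 without wild-type replicate 3. With all libraries 0 of the 16 separated without overlap, beside 10.2% of all genes.

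Of 22 netrin partners, 11 were higher and 11 lower with a median of 0.02 (0.40 without wild-type replicate 3), and 5 had an unadjusted p under 0.05, all of them higher in Ythdf2-/-, beside 3.63% of all genes. Flrt2 and Flrt3, adhesion proteins that bind Unc5 receptors, were picked by the study on these libraries and are no independent evidence. Both are part of the counts of this list, so those counts are no independent evidence beside the shares of all genes. Flrt2 was at 38.1, 35.2 and 23.5 CPM in wild type and 59.1, 93.9 and 51.9 CPM in Ythdf2-/- (log2 fold change 1.08, standard error 0.293), and Flrt3 at 15.2, 13.1 and 12.1 CPM and 19.0, 25.8 and 19.1 CPM (0.66, standard error 0.201). In both genes every Ythdf2-/- library was above every wild-type library. Lrrc4c, the membrane ligand of netrin-G1, was at 38.1, 45.7 and 52.3 CPM in wild type and 58.2, 57.3 and 68.0 CPM in Ythdf2-/- (log2 fold change 0.43, standard error 0.162). Dock1, an exchange factor for Rac downstream of Dcc, was at 139, 132 and 99.7 CPM in wild type and 158, 151 and 201 CPM in Ythdf2-/- (log2 fold change 0.46, standard error 0.187). Of the 22 partners 4, with Flrt2 and Flrt3 among them, were thus higher without overlap, beside 5.24% of all genes. Another, Maged1, which binds Unc5 receptors, was lower without overlap, beside 4.92%: it was at 1340, 1360 and 1300 CPM in wild type and 1110, 1170 and 1150 CPM in Ythdf2-/- (log2 fold change -0.22). Adora2b, an adenosine receptor reported to bind netrin, was at 7.70, 8.62 and 6.77 CPM and 17.1, 8.00 and 20.0 CPM, and overlapped through Ythdf2-/- replicate 2. Without wild-type replicate 3 the log2 fold changes of Flrt2, Flrt3 and Lrrc4c were 0.90, 0.59 and 0.54, and Dock1 (0.33) and Adora2b (0.88) no longer had an unadjusted p under 0.05, while Dscam (0.39), Rgma (0.85) and Arhgef12 (0.48) then did, in all 6 of the 22, beside 16.6% of all genes in that fit. None of the 5 had an adjusted p under 0.05 with edgeR.

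**Figure D5:**
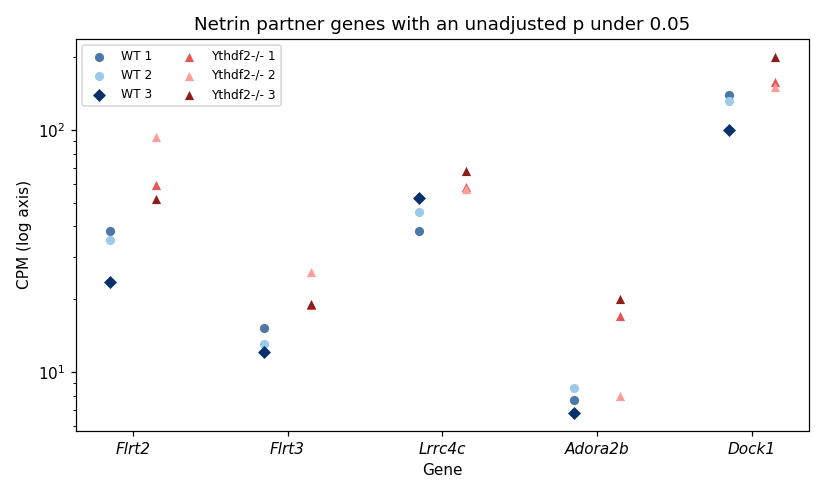
CPM on a log axis (vertical) of the 5 netrin partner genes with an unadjusted p under 0.05, by library (blue: wild type, replicate 3 as dark diamonds; red triangles: Ythdf2-/-). All red points lie above all blue points for Flrt2, Flrt3, Lrrc4c and Dock1, and for Adora2b Ythdf2-/- replicate 2 lies below wild-type replicate 2.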

How the data were processed

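The 3 wild-type and 3 Ythdf2-/- input libraries were taken from the sample labels, and the m6A-IP samples were not analysed here. Per the study's methods, libraries were strand-specific and reads were aligned to mm10 with TopHat. The submitters' processing notes name featureCounts, RSEM 1.2.15 and Bowtie2 2.2.9. The counting program's strand setting is not given in the sources used here. The authors deposited raw counts per gene without normalization, which were used as deposited. They also deposited tables with expected counts, TPM and FPKM. The deposited expected counts were 1.97 to 2.40% of the raw counts, 0 to 59.5 per library for a guidance gene, so FPKM served only as an alternative and TPM was not used.

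Genes passing filterByExpr (13112) were tested with edgeR 4.0.16 in R 4.3.3 (TMM, robust glmQLFit, glmQLFTest, genotype only, Benjamini-Hochberg over all genes). The common biological coefficient of variation was 0.332. Standard errors are the log2 fold change divided by the root of its F statistic. DESeq2 1.42.0 and limma 3.58.1 were alternatives. Exon lengths, positions and motif copies came from RefSeq annotation of GRCm38.p6, with the transcript of longest coding part. Other steps used Python 3.11.15. The families, whose members follow from the gene symbols, and the gene lists were chosen with earlier results of these data known. Genes were given with every library's value when they had 1 of the 2 highest mean RPKM of their role, 1 of the 12 largest absolute log2 fold changes, an unadjusted p under 0.05 or no overlap of groups; of partner lists, up to 5 genes with an unadjusted p under 0.05, else the largest change. The p-values set the difference between genotypes against the spread between libraries of the same genotype. The study calls these biological replicates, and the sample labels give only replicate numbers. One gene of the marker lists is not reported here by name.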

Additional observations from a re-analysis of the deposited data

How the results depend on the processing

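With other settings the number of guidance genes at an adjusted p under 0.05 was 1 with DESeq2 and 7 with limma-voom with sample quality weights, and 0 whenever a library was left out. The number at an unadjusted p under 0.05 was 4 with DESeq2 (5.57% of all genes in that fit), 18 with quality weights (29.9%), 3 with no filter on low counts (3.35%), 5 when presence of Y-linked reads was added as a term (11%), and 1 to 11 when a library was left out (1.85 to 16.6%), with 11 without wild-type replicate 3. Groups without overlap numbered 4 to 18 when a library was left out, with 18 without wild-type replicate 3 (38.9% of all genes), 10 without Ythdf2-/- replicate 2 (22.1%), and 5 (14.6 to 16%) without wild-type replicate 1 and without either of Ythdf2-/- replicates 1 and 3. The median log2 fold change was -0.11 to 0.22 when a library was left out, with 0.22 without wild-type replicate 3. With a replicate block the counts were 0 at an adjusted and 1 at an unadjusted p under 0.05 (unadjusted, 1.4% of all genes), and the median was -0.01. Deviations of same-numbered libraries from their group means had correlations of -0.248, -0.244 and -0.394. Wild-type replicates 1 and 2 gave similar correlations with each Ythdf2-/- library (0.349 and 0.399 with replicate 3). This check therefore cannot tell whether the numbers pair the libraries. Of the 39 tested guidance genes, 22 turned direction when some library was left out. For the 27 given with every library's value under the naming rule, 25 of 243 log2 fold changes under these alternatives turned. With the Y-linked term these were Efnb1 (-0.03), Ephb3 (-0.13), Robo1 (-0.03) and Neo1 (-0.05). When a library was left out, the lowest and highest values of those of the 27 that turned were -0.24 and 0.02 (Efna2), -0.03 and 0.23 (Efnb1), -0.71 and 0.38 (Ephb1), -0.13 and 0.40 (Ephb3), -0.08 and 0.59 (Robo1), -0.10 and 0.32 (Srgap2), -0.51 and 0.53 (Srgap3), -0.07 and 0.59 (Ntn4), -0.03 and 1.10 (Ntng2), -1.45 and 0.62 (Dcc), -0.15 and 0.43 (Neo1), -0.30 and 0.09 (Unc5a), and -1.14 and 0.80 (Unc5c). The cause was not tested. On the deposited FPKM, 11 guidance genes could be tested on log2(FPKM + 1), 8 had the same direction as on counts, and 0 had an unadjusted p under 0.05 with limma. Depth limits the 4 tested genes with fewer than 100 reads in all.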
